A study of Mus musculus with 8 samples.

Results

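The 35 genes described here encode the SREBP regulators, the enzymes of cholesterol synthesis and the enzymes of fatty acid synthesis, and they were taken from a fixed list of symbols out of 55573 genes counted per library. They were sorted by role into 5 genes of the SREBP machinery, 19 sterol synthesis genes (8 of the mevalonate and isoprenoid steps and 11 of the squalene and sterol ring steps), 2 genes of sterol handling and 9 fatty acid synthesis genes. RNA came from colon fibroblasts of C57BL6/J mice kept as flat cultures on plastic in Advanced DMEM F12 with 10% FBS. All cells, controls included, had received conditioned medium named APTKA, which the labels do not expand, and there was no arm without that medium. The non-irradiated group held 4 libraries and the irradiated group held 4 libraries from cells given 3 fractions of 2 Gy, and all 8 were harvested at 72 h, counted from the first fraction. The series calls the 4 samples of a group independent without naming separate animals or cultures, and the age of the mice is not given. The p-values below therefore reflect only how much these libraries vary, and that variation may be technical.

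Cells make cholesterol from acetyl-CoA by way of mevalonate, isoprenoid diphosphates, squalene and lanosterol, and they make fatty acids from the same acetyl-CoA by way of malonyl-CoA. Both routes are switched on by the SREBP transcription factors, which are made as membrane precursors, carried from the endoplasmic reticulum to the Golgi by the escort protein Scap when sterols are scarce, and cut there to release the active part. Insig proteins hold Scap back when sterols are plentiful. The product of Srebf2 acts mainly on sterol genes and that of Srebf1 mainly on fatty acid genes, and dividing cells draw on both routes to build new membrane.

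Total counts ran from 28731227 to 37157216 per library. Irradiated I and II stood apart in mitochondrial rRNA, with 15129 and 15263 CPM (read counts scaled to the library total) against 4178 to 5934 CPM in the other 6 libraries. Within a group, every pair of libraries differed by more than sampling noise (chi-square over its degrees of freedom 4.65 to 24.4). Irradiated I and II (4.93) and irradiated III and IV (4.65) were close, against 14.2 to 24.4 across these pairs. Among controls, II and IV were closest (4.78) and II and III furthest apart (12.4). Each library was counted as its own sample, although a difference beyond sampling noise does not show that samples are independent. Fibroblast markers summed to 16250 to 19080 CPM in non-irradiated and 14800 to 16120 CPM in irradiated libraries, with 2 of the 12, Col1a2 and Vim, called lower, 0 higher and a median log2 fold change of -0.12. Their part in the members' drop was not tested. Marker lists of epithelium, leukocytes, endothelium, adipocytes, glia and mesothelium each summed to at most 5.50 CPM in every library, and the adipocyte gene Lep had no count in any. Smooth muscle markers summed to 456 to 488 and 400.4 to 464 CPM, with 1 of 6 called lower and 1 called higher.

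Many but not all genes of both synthesis routes were lower after irradiation, by a similar and small amount. All 35 members passed the low-count filter, and 20 of them were called lower and 0 higher by edgeR's quasi-likelihood test at an adjusted p under 0.05. Across the 15259 genes tested, 4.15% were called lower and 2.59% higher. At an unadjusted p under 0.05, 25 members were lower and 1 was higher, and DESeq2 and limma-voom called 21 and 20 lower and 0 higher. The median log2 fold change of the 35 members was -0.22, against 0.00 over all genes tested, and 31 of the 35 values were below 0. Every irradiated library lay below every non-irradiated library for 24 members, and every one lay above for 1, where the shares over all genes tested were 8.07% and 6.13%. In such bulk RNA, fewer cells that express a gene and less RNA of that gene per cell cannot be told apart.

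**Figure D1:**
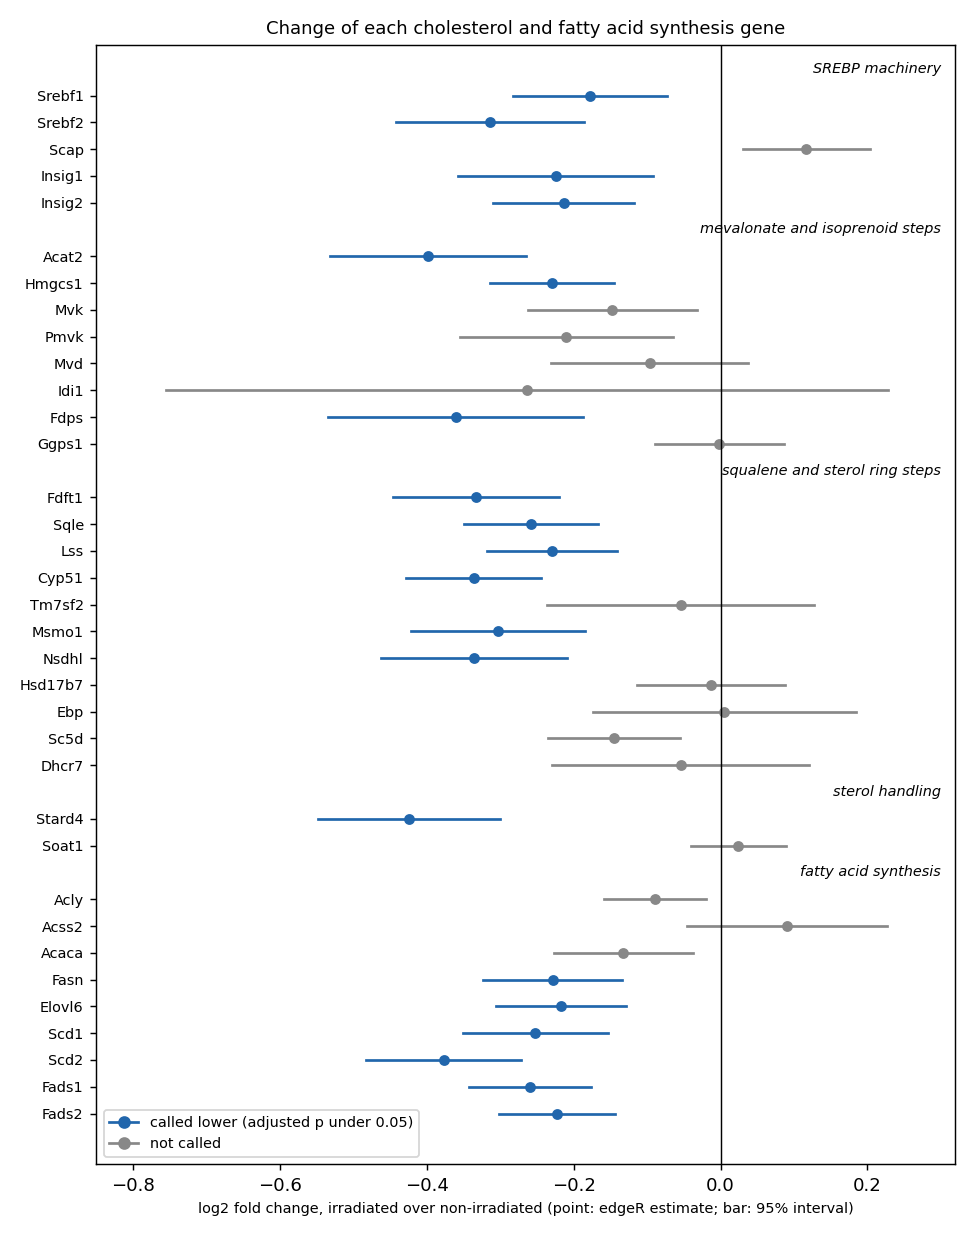
Log2 fold change (irradiated over non-irradiated, x axis) of each of the 35 genes, grouped by role, with the edgeR estimate as a point and its 95% interval as a bar. The 20 genes called lower are blue and lie between -0.42 and -0.18, and the 15 genes not called are grey.

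The promoters of the members were searched for 3 short motifs known from sterol-regulated genes. RefSeq promoters (GRCm38.p6) were found for 28 of the 35 members, and the 250 bases before the start were read on both strands. The missing ones are Sqle, Fdps, Fdft1, Stard4, Scd1, Scd2 and Fads1. The core of the sterol regulatory element, TCACNCCAC, occurred in the Hmgcs1 promoter alone among members and in 1.05% of all 32851 promoters of this length. The NF-Y motif CCAAT occurred in at least 1 promoter of 15 of the 16 sterol synthesis genes in the table and of 2 of the 6 fatty acid synthesis genes, against 37.5% of all 27025 genes. The Sp1 motif GGGCGG occurred for 14 of the 16 and 3 of the 6, against 35.4%. Both shares cover all genes with a listed promoter, tested for expression or not, whereas every member was tested. Acaca is among the 6 fatty acid synthesis genes and had neither CCAAT nor GGGCGG. Its only listed promoter (last 150 bases at 84195288 to 84195437 of chromosome 11) lies inside the gene, which starts at 84129672. The last 150 bases of the only listed promoters of Fads2, Msmo1 and Tm7sf2 also lie wholly inside their genes. No matches of different motifs overlapped in the member promoters. A match describes letters and is neither a shown binding site nor a cause. Only these exact letters within the 250 bases were sought, so an absent match does not show that a gene lacks such an element.

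The last 150 bases before the start are shown for 4 members whose stretch holds no annotated exon, chosen after seeing the results to set a called and an uncalled gene of each route side by side. Capitals mark TCACNCCAC and CCAAT on either strand. In the sterol route, Hmgcs1 was called lower and Ebp was not. In the fatty acid route, Fasn was called lower and Acly was not.
Hmgcs1 (chr13:119690201-119690350, plus strand): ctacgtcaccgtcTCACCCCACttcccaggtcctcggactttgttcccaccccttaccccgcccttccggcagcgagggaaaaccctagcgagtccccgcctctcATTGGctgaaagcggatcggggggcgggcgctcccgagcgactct
Ebp (chrX:8193513-8193662, minus strand): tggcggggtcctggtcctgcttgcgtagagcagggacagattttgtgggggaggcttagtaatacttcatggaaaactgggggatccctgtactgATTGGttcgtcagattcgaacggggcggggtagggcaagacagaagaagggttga
Fasn (chr11:120824548-120824697, minus strand): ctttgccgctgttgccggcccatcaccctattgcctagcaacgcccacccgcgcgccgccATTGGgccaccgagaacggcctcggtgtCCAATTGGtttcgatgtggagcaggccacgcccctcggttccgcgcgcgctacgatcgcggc
Acly (chr11:100528001-100528150, minus strand): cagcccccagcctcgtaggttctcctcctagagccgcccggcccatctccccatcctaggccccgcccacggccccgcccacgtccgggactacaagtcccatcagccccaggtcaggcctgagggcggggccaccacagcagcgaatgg
The Hmgcs1 stretch holds the core element and a CCAAT on the minus strand (ATTGG as read here), and the Ebp stretch holds an ATTGG too. The Fasn stretch holds a CCAAT and an ATTGG that share letters, plus a further ATTGG, and the Acly stretch holds none of these. Not all other fatty acid synthesis genes followed this pair. Elovl6 and Fads2 were called lower and had no CCAAT on either strand in the promoter bases searched. Of the last 150 of those bases, 129 for Elovl6 and all for Fads2 are annotated exon, and the Fads2 bases lie inside the gene. Acss2 had a CCAAT on the minus strand and was not called, while Acaca had none and was not called. Whether CCAAT goes with the call was not tested.

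Of the SREBP machinery, 4 of 5 genes were called lower, and the escort gene Scap was the exception. Srebf2, which encodes the sterol-directed factor, was at 212, 172, 189 and 177 CPM in non-irradiated libraries I to IV and at 159, 156, 143 and 146 CPM in irradiated I to IV. All irradiated values lay below all non-irradiated ones, and Srebf2 (chromosome 15, 82147181 to 82205379 of mm10) fell by 19.6% (log2 fold change -0.31 with an SE of 0.06, adjusted p = 0.00597). Srebf1, which encodes the fatty-acid-directed factor, was at 171, 152, 159 and 149 CPM and then at 147, 141, 138 and 132 CPM. Its groups did not overlap either, although non-irradiated IV and irradiated I were close (log2 fold change -0.18 with an SE of 0.05, adjusted p = 0.0445). Leaving out non-irradiated I or III, or irradiated II, III or IV, ended the Srebf1 call, with adjusted p up to 0.141. It also ended with irradiated I and II both left out (adjusted p = 0.0664) and with non-irradiated I and III both left out, where the log2 fold change was -0.11 (adjusted p = 0.192).

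The Insig genes, whose products retain Scap in the endoplasmic reticulum, were both called lower. Insig2 was at 130, 145, 136 and 130 CPM in non-irradiated and at 119, 121, 114 and 112 CPM in irradiated libraries, with no overlap (log2 fold change -0.21 with an SE of 0.04, adjusted p = 0.0107). Insig1, itself a sterol-responsive gene, was at 37.8, 32.9, 37.1 and 35.9 CPM and then at 29.0, 28.3, 32.4 and 33.4 CPM. Irradiated IV lay above non-irradiated II, so the groups of Insig1 overlapped (log2 fold change -0.22 with an SE of 0.06, adjusted p = 0.0453). With irradiated I and II both left out its log2 fold change was -0.13 (adjusted p = 0.383), and the call was also lost without non-irradiated I, III or IV or irradiated I, II or III (adjusted p up to 0.136). Leaving out non-irradiated I and III together ended the Insig1 call too (adjusted p = 0.216). Scap was at 132, 126, 131 and 119 CPM and then at 141, 137, 139 and 134 CPM, with every irradiated library above every non-irradiated one, but it was not called (log2 fold change 0.12, 95% interval 0.03 to 0.20, adjusted p = 0.105).

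**Figure D2:**
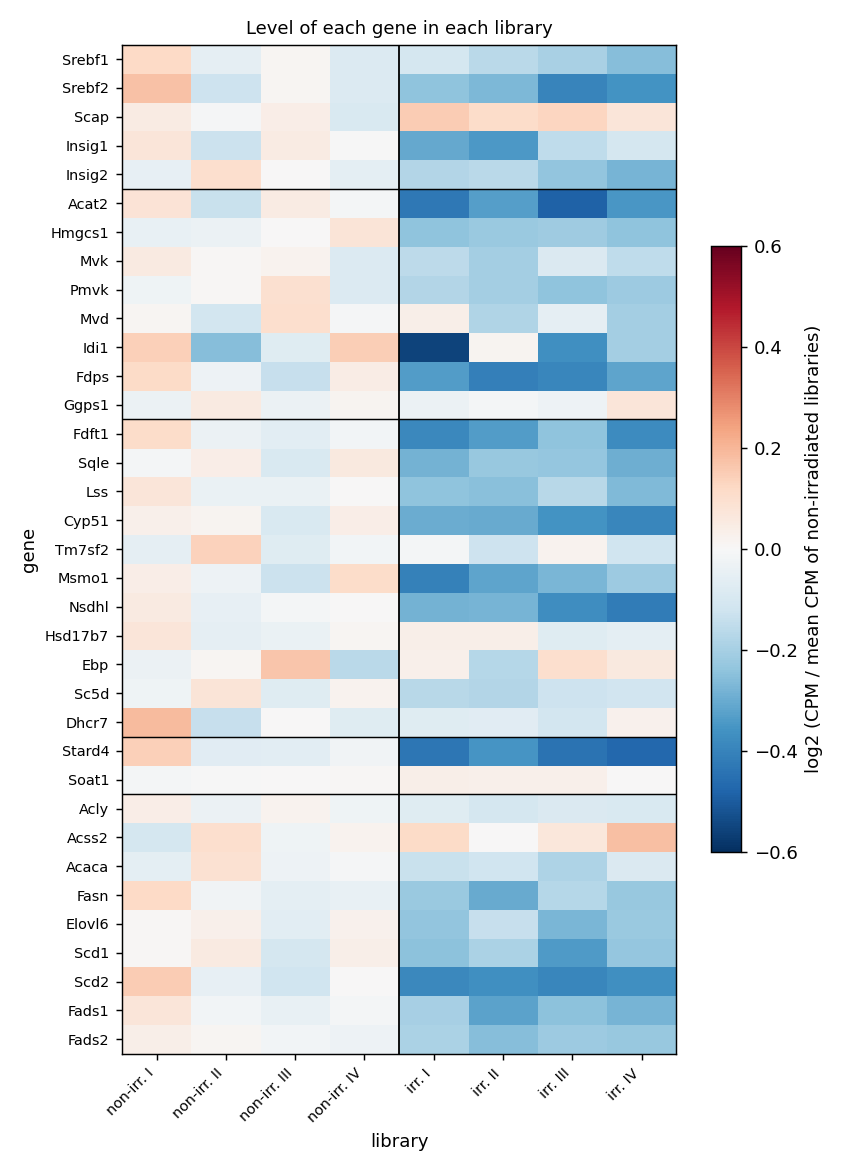
Level of each member (rows, grouped by role between the black lines) in each of the 8 libraries (columns), as log2 of its CPM over the mean CPM of the 4 non-irradiated libraries. The irradiated columns are blue for most rows, while Scap is red in all 4 of them and Idi1, with 137 counts in all, varies most.

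In the mevalonate and isoprenoid steps, which turn acetyl-CoA into the isoprenoid diphosphates, 3 of 8 genes were called lower and 0 higher, and the median log2 fold change was -0.22. Acat2, the cytosolic thiolase that joins acetyl-CoA units, was at 23.4, 20.1, 22.9 and 22 CPM in non-irradiated and 16.4, 17.6, 15.8 and 17.4 CPM in irradiated libraries. It had the largest drop of the sterol synthesis genes, and it fell by 24.1% (log2 fold change -0.40 with an SE of 0.06, adjusted p = 0.00138). Hmgcs1, the HMG-CoA synthase gene (chromosome 13, 119690379 to 119708260), was at 107, 108, 111 and 117 CPM and then at 93.7, 94.7, 95.4 and 93.6 CPM. The irradiated values of Hmgcs1 lay close together and all below the lowest control (log2 fold change -0.23 with an SE of 0.04, adjusted p = 0.00281). Fdps, which makes farnesyl diphosphate, was at 7.67, 6.93, 6.44 and 7.31 CPM and then at 5.61, 5.33, 5.40 and 5.70 CPM, again without overlap (log2 fold change -0.36 with an SE of 0.08, adjusted p = 0.0162). The Fdps call was lost when irradiated I and II were both left out (adjusted p = 0.105).

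The other 5 genes of the mevalonate and isoprenoid steps were not called. Mvk (mevalonate kinase) was at 20.4 ± 0.824 and 18.4 ± 0.607 CPM (SD, n = 4; log2 fold change -0.15, adjusted p = 0.123), and Pmvk (phosphomevalonate kinase) at 9.72 ± 0.512 and 8.41 ± 0.154 CPM (-0.21, adjusted p = 0.0832). For both kinases all irradiated values were below all control values, and Pmvk was called with the GC and length trends removed (adjusted p = 0.0386). Mvd, the diphosphomevalonate decarboxylase gene, was at 28.7 ± 1.73 and 26.8 ± 2.09 CPM with overlapping groups (log2 fold change -0.10, adjusted p = 0.41). Ggps1, which leads away from sterols to geranylgeranyl diphosphate, was level at 87.4 ± 2.67 and 87.3 ± 3.05 CPM (log2 fold change 95% interval -0.09 to 0.09). That interval of Ggps1 does not reach the drop estimated for any called member. Idi1, the isopentenyl diphosphate isomerase gene, was at 0.569 ± 0.0741 and 0.474 ± 0.0802 CPM, and with 137 counts over 8 libraries its interval ran from -0.76 to 0.23.

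Of the squalene and sterol ring steps, 6 of 11 genes were called lower and 0 higher (median log2 fold change -0.23). The first 4 enzymes in order, from squalene formation to lanosterol demethylation, were all among the 6. Fdft1, the squalene synthase gene, was at 35.5, 32.1, 31.5 and 32.5 CPM in non-irradiated and 25.1, 26.0, 27.8 and 25.3 CPM in irradiated libraries (log2 fold change -0.33 with an SE of 0.05, adjusted p = 0.00152). Sqle (squalene epoxidase) was at 53.5, 55.6, 50.7 and 56.3 CPM and then at 44.4, 46.2, 46.0 and 44.2 CPM (log2 fold change -0.26 with an SE of 0.04, adjusted p = 0.0022). Both enzymes fell without overlap of the groups. Lss (lanosterol synthase) was at 80.0, 74.0, 74.2 and 76.3 CPM and then at 64.5, 64.0, 67.8 and 63.5 CPM (log2 fold change -0.23 with an SE of 0.04, adjusted p = 0.00408). Cyp51, the lanosterol demethylase gene (chromosome 5), was at 82.4, 81.7, 75.8 and 83.0 CPM and then at 65.6, 65.5, 63.0 and 61.6 CPM. Its groups did not overlap (log2 fold change -0.34 with an SE of 0.04, adjusted p = 0.000296), and its call was kept in all 17 alternatives (adjusted p from 2.81e-10 to 0.00296).

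The remaining called ring enzymes remove methyl groups from the sterol nucleus. Msmo1 (methylsterol monooxygenase) was at 77.8, 74.3, 69.4 and 81.7 CPM in non-irradiated and 57.1, 60.8, 62.6 and 65.1 CPM in irradiated libraries (log2 fold change -0.30 with an SE of 0.05, adjusted p = 0.0043). Nsdhl, a sterol dehydrogenase gene on chromosome X, was at 17.3, 16.1, 16.6 and 16.7 CPM and then at 13.7, 13.8, 12.9 and 12.5 CPM (log2 fold change -0.34 with an SE of 0.06, adjusted p = 0.00353). Neither gene's groups overlapped. Msmo1 (adjusted p = 0.0638) and Lss (0.0634) missed the threshold in the fit that left out irradiated I and II together.

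The other 5 ring enzymes were not called. Sc5d (sterol C5-desaturase) was at 82.7 ± 3.68 and 74.8 ± 1.5 CPM without overlap (log2 fold change -0.15, adjusted p = 0.0548), and it was called in 4 alternatives, for example by DESeq2 (0.0234) and when non-irradiated III was left out (0.0306). Hsd17b7, the 3-keto reductase that works beside Nsdhl, was at 32.6 ± 1.31 and 32.3 ± 1.28 CPM (log2 fold change 95% interval -0.11 to 0.09). Ebp, the sterol isomerase gene, was at 11.4 ± 1.09 and 11.5 ± 0.931 CPM (-0.17 to 0.18). Thus the intervals of Hsd17b7 and Ebp spanned 0, and that of Hsd17b7 stopped short of the whole interval of Cyp51 (-0.43 to -0.24). Tm7sf2, a sterol reductase gene, was at 5.58 ± 0.379 and 5.37 ± 0.279 CPM (-0.24 to 0.13). Dhcr7, which encodes the reductase of the last step to cholesterol, was at 8.68 ± 0.879 and 8.36 ± 0.336 CPM (-0.23 to 0.12). The intervals of Tm7sf2 and Dhcr7 end close to the estimate for Lss, the smallest drop of the called ring enzymes.

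The sterol handling genes split. Stard4, a carrier that moves cholesterol between membranes, was at 30.6, 26.4, 26.5 and 27.3 CPM in non-irradiated and 20.5, 21.6, 20.4 and 19.9 CPM in irradiated libraries. It fell by 25.5%, the largest drop of the 35 members (log2 fold change -0.42 with an SE of 0.06, adjusted p = 0.000469), and kept its call in all 17 alternatives. Soat1, which esterifies cholesterol for storage, was at 288, 290, 291 and 292 CPM and then at 298, 296, 296 and 291 CPM. The values of Soat1 ran from 288 to 298 CPM over all 8 libraries (log2 fold change 0.02, 95% interval -0.04 to 0.09, adjusted p = 0.701).

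In fatty acid synthesis, 6 of 9 genes were called lower and 0 higher (median log2 fold change -0.22). The 6 are the synthase, an elongase and 4 desaturases. Fasn, the fatty acid synthase gene (chromosome 11, 120805846 to 120824547), was at 324, 294, 286 and 289 CPM in non-irradiated and 256, 242, 265 and 255 CPM in irradiated libraries. No value overlapped, and Fasn fell by 14.7% (log2 fold change -0.23 with an SE of 0.04, adjusted p = 0.00656), a call that was lost when irradiated I and II were both left out (0.0897). Elovl6, which lengthens palmitate, was at 58.4, 59.4, 55.6 and 59.2 CPM and then at 49.3, 52.8, 48.1 and 49.8 CPM (log2 fold change -0.22 with an SE of 0.04, adjusted p = 0.00597).

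The desaturase genes all fell without overlap of the groups. Scd2, a stearoyl-CoA desaturase, was at 435, 378, 361 and 392 CPM in non-irradiated and at 300, 303, 299 and 304 CPM in irradiated libraries. It had the largest drop of the fatty acid genes (log2 fold change -0.38 with an SE of 0.05, adjusted p = 0.000357), and its irradiated libraries lay close together. Its close relative Scd1 was at 139, 144, 129 and 142 CPM and then at 117, 121, 109 and 118 CPM (log2 fold change -0.25 with an SE of 0.05, adjusted p = 0.0043). Both genes lie on chromosome 19, as do Fads1 and Fads2. Fads1, the delta-5 desaturase of polyunsaturated fatty acids, was at 214, 201, 198 and 202 CPM and then at 178, 163, 172 and 168 CPM (log2 fold change -0.26 with an SE of 0.04, adjusted p = 0.000947). Fads2, the delta-6 desaturase, was at 80.0, 78.9, 77.3 and 76.6 CPM and then at 68.6, 65.5, 67.2 and 66.8 CPM (log2 fold change -0.22 with an SE of 0.04, adjusted p = 0.0022).

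The genes that supply and commit acetyl-CoA were not called. Acly, which makes cytosolic acetyl-CoA from citrate, was at 233 ± 5.90 and 219 ± 2.07 CPM (log2 fold change -0.09, 95% interval -0.16 to -0.02, adjusted p = 0.121). Acaca, the acetyl-CoA carboxylase of the committed step, was at 44.2 ± 2.05 and 40.4 ± 1.14 CPM (-0.13, -0.23 to -0.04, adjusted p = 0.0921). Every irradiated library was below every control for Acly and Acaca, but neither reached the threshold, and Acaca was called in 1 alternative, that without both non-irradiated I and III (0.0447). Acss2, which makes acetyl-CoA from acetate, was at 15.6 ± 0.942 and 16.6 ± 0.859 CPM with overlapping groups (log2 fold change 0.09, 95% interval -0.05 to 0.23). The interval of Acss2 did not meet that of Fasn (-0.32 to -0.13).

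The sterol and fatty acid arms were lower by similar amounts. Averaged over its genes and set against the mean of the non-irradiated libraries, the log2 CPM of the sterol arm stood at -0.20, -0.20, -0.19 and -0.20 in irradiated I to IV. Non-irradiated libraries I to IV stood at 0.04, -0.03, -0.02 and 0.01. The fatty acid arm stood at -0.17, -0.20, -0.20 and -0.17 in irradiated libraries and at 0.03, 0.02, -0.05 and 0.00 in non-irradiated ones. For both arms the groups did not overlap. The sterol arm minus the fatty acid arm was -0.01 ± 0.021 in irradiated and spread by 0.032 (SD, n = 4) around 0 in non-irradiated libraries, with overlapping values. Called lower were 47.4% of the sterol synthesis genes and 66.7% of the fatty acid synthesis genes, and the difference between these shares was not tested. Irradiated I and II, which stood apart in mitochondrial rRNA, had arm levels close to those of irradiated III and IV.

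**Figure D3:**
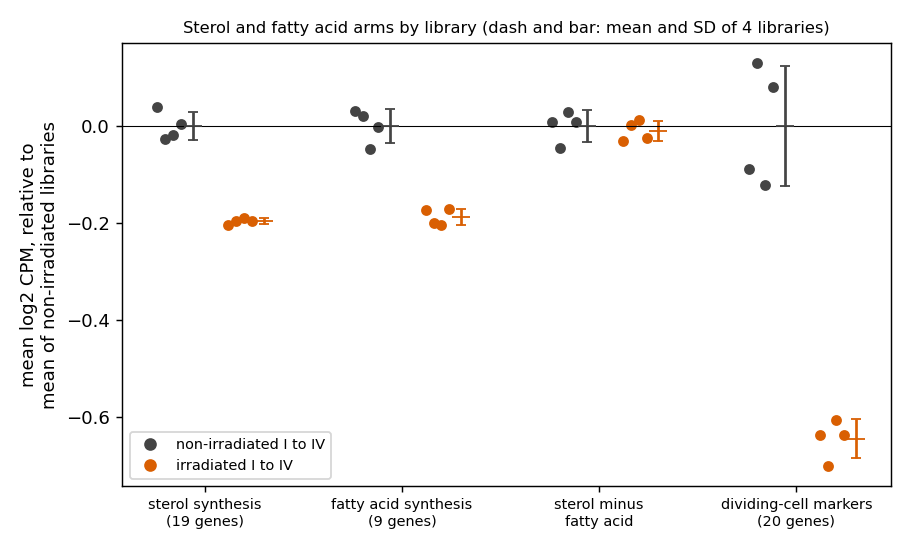
Mean log2 CPM of the 19 sterol synthesis genes, the 9 fatty acid synthesis genes, their difference and 20 dividing-cell markers in each library, relative to the mean of the non-irradiated libraries. Points are libraries, and the dash and bar give mean and SD. Both arms sit near -0.19 in all 4 irradiated libraries, their difference sits at 0, and the dividing-cell markers sit lower, near -0.64.

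Markers of dividing cells moved in the same direction. All 20 were called lower (median log2 fold change -0.65), and they summed to 716 to 865 CPM in non-irradiated and 499 to 523 CPM in irradiated libraries. Their part in the drop of the synthesis genes was not tested.

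Per length, the members covered a wide range of levels. Scd2 was the highest at 71.6 CPM per kb of annotated exon in non-irradiated libraries, followed by Acly (44.2 CPM per kb), Fads1 (42.4) and Insig2 (38.9). Of the sterol synthesis genes Hmgcs1 was highest at 24.1 CPM per kb, ahead of Ggps1 (18.5) and Cyp51 (18.3). Srebf1 and Srebf2 had similar levels, 28.0 and 26.1 CPM per kb. At the low end were Fdps (1.69), Acss2 (1.53), Dhcr7 (1.49), Tm7sf2 (1.27) and Idi1 (0.162 CPM per kb). Of these low genes only Fdps was called lower. Of the highest genes named, Scd2, Fads1 and Insig2 were called and Acly was not.

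**Figure D4:**
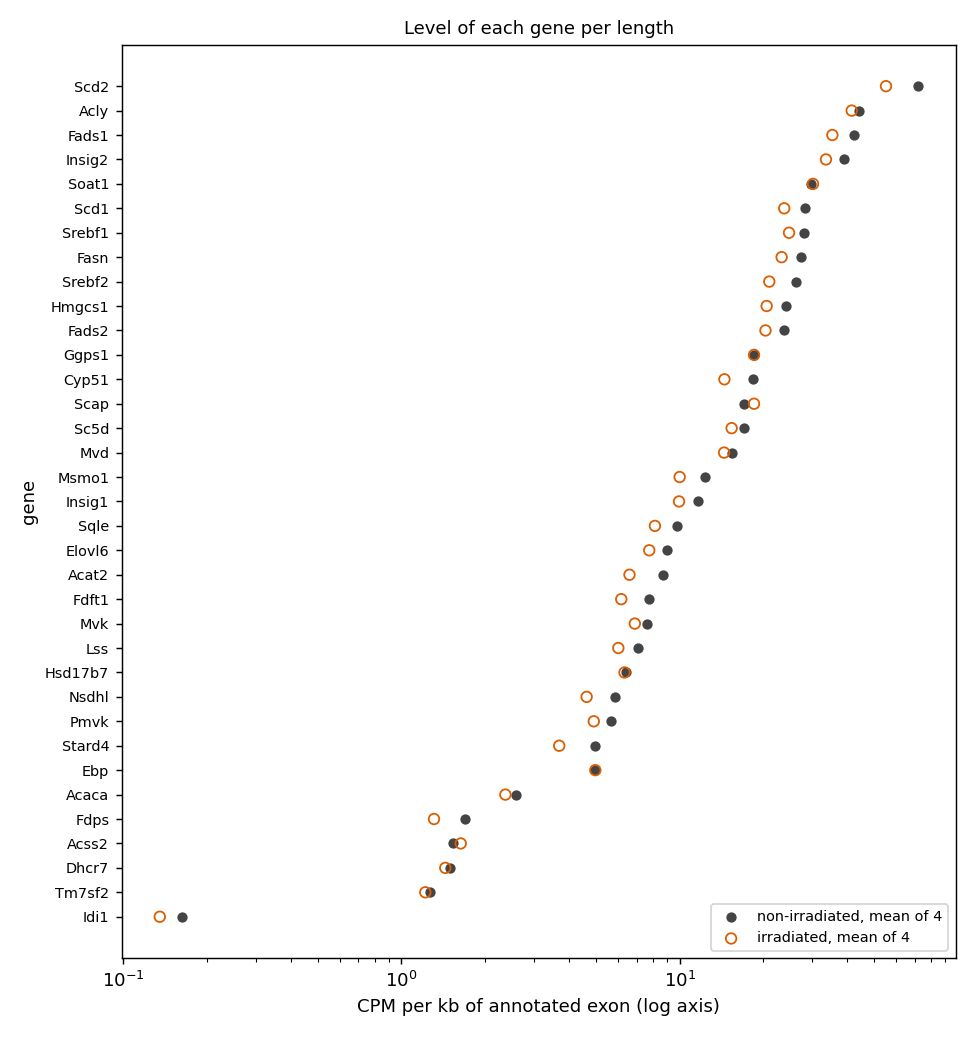
CPM per kb of annotated exon (log axis) for each member, as the mean of 4 non-irradiated (filled) and 4 irradiated (open) libraries, sorted by the non-irradiated level. Levels run from 0.162 CPM per kb for Idi1 to 71.6 CPM per kb for Scd2, and the shift between the groups is small beside that range.

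Some members share sequence with other genes, which can take reads away from them. Of the 50-base windows of the longest Idi1 transcript, 30.5% also occur in another gene, and the Idi1 pseudogene Gm7654 was itself at 0.43 and 0.443 CPM. For Fdps the share was 11.7%, and the same-strand gene Gm43738, which had 1 count in all, overlaps 26.7% of its exon bases. Acat2 shared 45.9% of its windows with Acat3 (1.54 and 1.68 CPM) and Tcp1 (320 and 311 CPM), and Acaca shared 52.6% with the pseudogene Gm5182 (0.374 and 0.37 CPM). Scd1 and Scd2 shared under 5% of windows with their relatives. Fdft1 shared 30.7% with Ctsb and the pseudogene Gm6781 combined, and the opposite-strand gene Ctsb (641 and 585 CPM) overlaps 18.3% of its exon bases. How the authors counted reads that fit several genes, or reads on the opposite strand, is not given in the sources used here, so the levels and changes of these genes carry that uncertainty.

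In 7 lists of other lipid genes, few were called in either direction. Of 16 genes of SREBP processing and turnover, 0 were called lower (1 at an unadjusted p under 0.05; 0 by DESeq2 and by limma-voom) and 2 higher. Lpin1, a phosphatidate phosphatase that also restrains nuclear SREBP, rose from 73.5 ± 0.67 to 90.7 ± 3.21 CPM (SD, n = 4; log2 fold change 0.30 with an SE of 0.04, adjusted p = 0.000315). Fbxw7, part of a ubiquitin ligase that degrades nuclear SREBP, rose from 48.0 ± 2.47 to 54.6 ± 1.68 CPM (0.18 with an SE of 0.04, adjusted p = 0.0244), a call lost without irradiated I, III or IV (adjusted p up to 0.0843), without non-irradiated I and III together (0.0608) and without irradiated I and II together (0.107).

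Of 12 LXR receptors and targets, which drive sterol export, 1 was called higher and 0 lower (1 lower at an unadjusted p under 0.05; 0 lower by DESeq2 and limma-voom). The one was Abca1, the exporter of cholesterol, which rose from 50.1 ± 4.97 to 62.6 ± 3.60 CPM without overlap (SD, n = 4; log2 fold change 0.32 with an SE of 0.06, adjusted p = 0.00794). It was called in all 17 alternatives. The corepressor gene Ncor1 (log2 fold change -0.10, adjusted p = 0.111) and Arl4c (-0.01, adjusted p = 0.931) were not called. Of 17 genes of sterol uptake and transport, 2 were lower and 0 higher (1 higher at an unadjusted p under 0.05; 0 higher by DESeq2 and limma-voom). Cav1, the caveolin of cholesterol-rich membrane pits, fell from 283 ± 24.0 to 227 ± 7.82 CPM (-0.32 with an SE of 0.05, adjusted p = 0.00239). Scarb1, a lipoprotein receptor, was at 97.1 ± 3.80 and 87.4 ± 1.06 CPM (-0.15, adjusted p = 0.0353), a call lost in 10 of the 17 alternatives, among them leaving out any single library but non-irradiated IV (adjusted p up to 0.0896). Lrp1, an abundant lipoprotein receptor gene, was at 1939 ± 49.9 and 1858 ± 61.1 CPM (adjusted p = 0.378).

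The listed genes of isoprenoid use, of other fatty acid synthesis and activation, and of glycerolipids and lipid droplets were not called by edgeR. Of 16 genes of dolichol, ubiquinone and protein prenylation, 0 were lower and 0 higher by edgeR (1 and 2 at an unadjusted p under 0.05; 0 by DESeq2 and limma-voom), and Fntb (-0.20, adjusted p = 0.0876) and Dolk (0.15, adjusted p = 0.0963) had the smallest p, while Icmt was the most abundant further gene (142 ± 5.84 and 141 ± 1.12 CPM). Of 20 tested genes of other fatty acid synthesis and activation, 0 were called (4 lower and 1 higher at an unadjusted p under 0.05; limma-voom called 0 and DESeq2 called 1 lower). That one was Tecr, the last reductase of chain lengthening (log2 fold change -0.19, adjusted p = 0.0741 by edgeR and 0.0296 by DESeq2). Tecr was also called by edgeR without the filter (0.0066), with the GC and length trends removed (0.0124) and without non-irradiated IV (0.0479). Acsl5 (-0.12, adjusted p = 0.0633) and Acsl4 (-0.05, adjusted p = 0.571), which activate fatty acids, were not called. Of 20 genes of glycerolipids and lipid droplets, 0 were called (1 lower and 3 higher at an unadjusted p under 0.05; limma-voom called 0, and DESeq2 1 lower and 2 higher). Abhd5 (0.16, adjusted p = 0.0582) and Agpat5 (0.16, adjusted p = 0.0628) had the smallest p there and were called in 6 and 3 of the 17 alternatives, DESeq2 among them (0.0203 and 0.0414), and the droplet coat gene Plin2 was at 244 ± 24.6 and 267 ± 5.98 CPM (adjusted p = 0.201). Plin2 was called in 3 alternatives: without the filter (0.0493), without non-irradiated III (0.0171) and without non-irradiated I and III together (0.00138). The phosphatidate phosphatase gene Lpin1, called higher, was counted with SREBP processing and not among the glycerolipid genes.

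Fatty acid oxidation, the opposite route, had 1 of 22 tested genes called higher and 0 lower (4 higher and 1 lower at an unadjusted p under 0.05). DESeq2 called 1 higher and 1 lower there, and limma-voom called 1 higher and 0 lower. Cpt1a, the carnitine palmitoyltransferase that lets fatty acids into mitochondria, rose from 105 ± 2.67 to 122 ± 1.40 CPM (SD, n = 4; log2 fold change 0.22 with an SE of 0.04, adjusted p = 0.0021). It did so without overlap and was called in all 17 alternatives. Echs1 (-0.15, adjusted p = 0.0552), called in 4 alternatives, DESeq2 among them (0.0377), and Hadha (0.08, adjusted p = 0.262), both enzymes of beta-oxidation, were not called by edgeR. The medians of these 7 lists lay between -0.05 and 0.04 on the log2 scale, against -0.23 for the sterol and -0.22 for the fatty acid synthesis genes. The differences between lists were not tested.

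**Figure D5:**
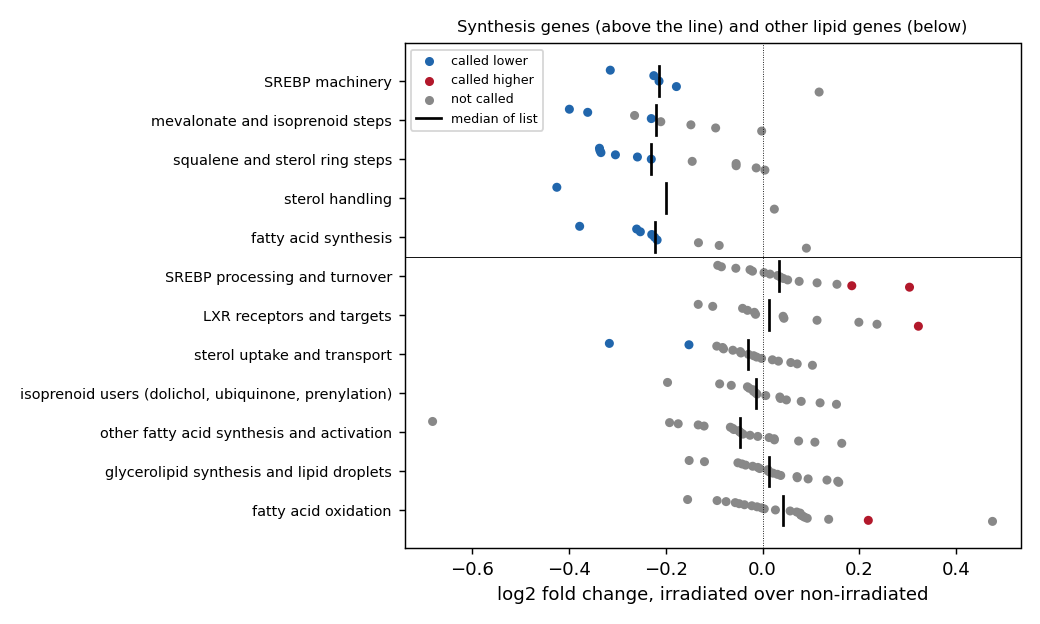
Log2 fold change (irradiated over non-irradiated) of each tested gene in the 5 groups of members (above the line) and in 7 lists of other lipid genes (below it), with the median of each list as a black bar. Most members lie to the left of 0, with medians from -0.23 to -0.20, and the other lists straddle 0. The -0.20 is the median of sterol handling, whose 2 genes stood at -0.42 (Stard4) and 0.02 (Soat1).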

How the data were processed

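Polyadenylated RNA of 8 libraries was counted per Ensembl gene, and the authors deposited raw read counts with no normalization, 1 file per library. The submitters' processing notes, given per the labels, name STAR 2.5.2a, featureCounts 1.5.0-p1 and bcl2fastq 2.20.0.422, with mm10, whereas no annotation release, strand setting or treatment of multi-mapping reads is given in the sources used here. Symbols, exon lengths and coordinates came from GENCODE M21 (GRCm38, the coordinates of mm10), which named 55480 of 55573 identifiers.

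Counts were tested with edgeR 4.0.16 (R 4.3.3) across all genes: TMM factors, filterByExpr (minimum count 10, minimum total 15; 15259 genes kept, 40314 left out), a quasi-likelihood fit of group alone on all 8 libraries, and Benjamini-Hochberg adjustment over all genes tested, with calls at 0.05. SEs and 95% intervals were derived from the F statistic. CPM values use the TMM factors, apart from mitochondrial rRNA, which is scaled to total counts. Arm levels are means of log2 CPM with a prior count of 2. The pipeline was first tested on simulated data. The number of libraries (4 per group) and the depth limit precision. The 95% intervals are for the log2 fold change between groups and rest on the spread between libraries, so they are not ranges of library values.

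The members, lists and tests were chosen with earlier results of these data known. All members are described; of each further list, the 2 genes with the smallest p and the most abundant further gene are named, except 1 gene that is not reported here. Alternatives were RLE factors, DESeq2 1.42.0, limma-voom (limma 3.58.1), no filter on low counts, at least 1 CPM in 4 libraries, the replicate numeral as a block, an offset for GC content and transcript length (loess, span 0.5), leaving out each library, and leaving out irradiated I and II or non-irradiated I and III. The proteins of the members are not used here.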

Additional observations from a re-analysis of the deposited data

How the results depend on the processing

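The count of members called lower, 20, lay between 14 (without both irradiated I and II) and 22 (GC and length offset) over 17 alternatives, and between 18 and 20 when any 1 library was left out. Of the 20 genes, 14 kept their call in all 17 alternatives, 18 kept it whichever single library was left out (Srebf1 and Insig1 did not), and all 20 log2 fold changes stayed below 0. Members called higher numbered 0 in 16 alternatives and 1 (Scap, adjusted p = 0.0384) without both non-irradiated I and III. Of the 15 uncalled members, 11 stayed uncalled throughout. Sterol synthesis genes called lower numbered 6 to 11 and fatty acid synthesis genes 5 to 7, and the medians ranged from -0.24 to -0.21 for both arms.

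Same-numbered libraries of the groups did not all deviate together (correlations across genes of 0.025, -0.033, 0.275 and 0.147 for I to IV). The value for III was the highest of all pairs, and different-numbered pairs ran from -0.226 to 0.148. These values do not settle whether a numeral marks a shared culture, and the labels do not say so. The numerals were therefore not taken as pairs in the main fit. With the replicate block, 20 members were called lower and 0 higher, no member's call changed, Abhd5 (adjusted p = 0.0416), Agpat5 (0.0411) and Echs1 (0.0201) were called among the other lipid genes named, and over all genes 802 were lower and 550 higher in place of 634 and 395. Over all genes, the lower count was 415 without irradiated IV and 295 without both irradiated I and II, and the higher count was 648 without the filter and 221 to 257 without non-irradiated I or irradiated III or IV. Idi1, with under 1 CPM in every library, is the member that depth limits most. The filter at 1 CPM left it out.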
